A study of Mus musculus with 77 samples.

Results

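Mcm5, Rrm2, Top2a, Cdk1, Aurkb and Kif23 are genes of DNA replication and cell division, and they are described here across the enhancers assigned to them during granulocyte formation in mouse bone marrow. All enhancers of the authors' deposited table whose assigned gene is one of the 6 were taken, 35 of 44002, together with the expression values given for these genes, 6 of 10096. The rule for the enhancers uses the assigned gene and no signal value, but the 6 genes were chosen with earlier results of these data known. Rrm2 had 7 enhancers, Mcm5 2, Top2a 1, Kif23 13, Aurkb 10 and Cdk1 2, while the median over all genes was 2 and the highest number was 74.

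The study profiled enhancers in sorted bone marrow cells on the path to granulocytes, with and without CEBPA, a transcription factor needed to make them. LSK are lineage-negative, Sca-1-positive, ckit-positive cells that hold stem and multipotent progenitors. preGM (Lin-, Sca-1-, ckit+, CD150-, CD105-) and GMP (Lin-, Sca-1-, ckit+, CD150-, FcgRII/III+) are successive granulocyte-monocyte progenitors, and granulocytes were sorted as Mac1+Gr-1+ cells. The mutant group was preGM from CEBPA KO mice, set against wild type preGM. The age and sex of the animals, the part of the gene deleted and the cells in which it was deleted are not given in the labels. H3K27ac, an acetylation that marks enhancers in use, and H3K4me1, a methylation found at both used and primed enhancers, were given for all 5 groups. The myeloid transcription factor PU.1 was used in KO preGM and in wild type LSK, preGM and GMP, and CEBPA in wild type preGM. Each ChIP group has 2 listed libraries, but the table holds 1 signal value per enhancer and group. There is therefore no spread between replicates, no difference could be tested, and whether neighbouring groups differ beyond replicate error is unknown.

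A dividing cell loads the MCM helicase on its replication origins, makes deoxynucleotides for the new DNA, untangles the copied strands and then separates the chromosomes and the daughter cells. Mcm5 is a subunit of the MCM helicase, Rrm2 the small subunit of ribonucleotide reductase, which makes deoxynucleotides, and Top2a the DNA topoisomerase that untangles chromosomes. Cdk1 is the kinase that drives entry into mitosis, Aurkb the kinase of the chromosomal passenger complex, and Kif23 a kinesin of the central spindle needed for cytokinesis. In the marrow, myeloid progenitors divide, and granulocytes leave the cell cycle before they mature.

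Promoter sequences are shown because genes of this kind are known for a small set of promoter elements. RefSeq sequences of build GRCm38.p6 matched 5 of the 6 genes, all but Aurkb, and each run below covers the 250 bases before the gene's start, 5′ to 3′ on the gene's own strand. The windows are chr8:75109259-75109508 for Mcm5, chr12:24708004-24708253 for Rrm2, chr11:99024190-99024439 on the minus strand for Top2a, chr10:69352913-69353162 on the minus strand for Cdk1 and chr9:61946800-61947049 on the minus strand for Kif23. Capitals mark every match, on either strand, to CCAAT, the box bound by NF-Y, to TTTGAA or TTCGAA, forms of the cell cycle homology region (CHR), and to TTTGGCGC, a form of the E2F site.
Mcm5: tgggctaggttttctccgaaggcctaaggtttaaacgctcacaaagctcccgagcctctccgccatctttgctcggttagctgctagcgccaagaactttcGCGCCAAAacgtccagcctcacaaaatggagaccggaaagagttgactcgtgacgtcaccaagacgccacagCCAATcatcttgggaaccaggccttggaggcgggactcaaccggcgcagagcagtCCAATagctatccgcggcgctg
Rrm2: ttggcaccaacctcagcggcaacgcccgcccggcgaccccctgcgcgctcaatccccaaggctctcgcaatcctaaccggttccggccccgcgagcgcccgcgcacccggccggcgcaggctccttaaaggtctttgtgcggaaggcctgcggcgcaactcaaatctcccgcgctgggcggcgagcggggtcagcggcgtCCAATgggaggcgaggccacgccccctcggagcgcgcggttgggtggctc
Top2a: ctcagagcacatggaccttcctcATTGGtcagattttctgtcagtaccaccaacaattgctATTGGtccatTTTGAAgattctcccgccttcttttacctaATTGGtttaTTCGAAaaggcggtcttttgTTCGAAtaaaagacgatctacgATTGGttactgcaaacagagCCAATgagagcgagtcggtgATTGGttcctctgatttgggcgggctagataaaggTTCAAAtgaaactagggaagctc
Cdk1: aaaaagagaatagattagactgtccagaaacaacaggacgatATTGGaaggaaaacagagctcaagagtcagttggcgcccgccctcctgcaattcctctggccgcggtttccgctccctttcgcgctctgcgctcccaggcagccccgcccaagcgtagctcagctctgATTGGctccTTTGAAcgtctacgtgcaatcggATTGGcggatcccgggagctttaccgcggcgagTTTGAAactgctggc
Kif23: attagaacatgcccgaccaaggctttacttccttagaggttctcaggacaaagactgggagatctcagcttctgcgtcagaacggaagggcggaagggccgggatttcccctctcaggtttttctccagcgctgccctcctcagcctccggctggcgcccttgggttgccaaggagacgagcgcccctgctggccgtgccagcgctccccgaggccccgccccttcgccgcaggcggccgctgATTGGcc

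CCAAT was found in all 5 windows and in 33.8% of the 32851 RefSeq promoter windows of the same length. The Top2a window held 6 CCAAT boxes, that of Cdk1 3, that of Mcm5 2, and those of Rrm2 and Kif23 1 each. A CHR form was found in Top2a and Cdk1, against 17.1% of all promoters. In Cdk1 the letters TTTGAA start at positions -71 and -15, counted back from the gene's start, and in Top2a they start at -179 and, read on the other strand, at -23, with TTCGAA at -140 and -120. TTCGAA is its own reverse complement and was counted once per place. The Mcm5 window held TTTGGCGC, on the reverse strand at -149, which 0.417% of all promoters hold. The E2F forms TTTCCCGC (0.895% of all promoters) and TTTGGCGG (0.444%), the PU.1 letters GAGGAAGT (2.44%) and the C/EBP letters TTGCGCAA (0.164%) and TTGCNNCAA (1.74%) were not in these windows. These are matches of letters, not measured binding sites.

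The enhancers themselves were 42 to 507 bp wide (median 198 bp, against 194 bp over all enhancers), with positions in build mm9. The promoter windows above are in another build, so the distance of each enhancer from its gene's start was not measured. Those of Kif23 lay within 30164 bp of chromosome 9, those of Rrm2 within 27885 bp of chromosome 12, those of Aurkb within 13260 bp of chromosome 11, those of Mcm5 within 10763 bp of chromosome 8 and those of Cdk1 within 48072 bp of chromosome 10. No enhancer assigned to another gene lay between the enhancers of any of the 6. The gene of each enhancer is the authors' assignment, and which gene an enhancer acts on was not tested. For Kif23, the neighbouring RefSeq genes are Rplp1 and Paqr5. The table's own stage class put 23 of the 35 (65.7%) in a class that includes granulocytes, against 42.5% of all enhancers, and 4 (11.4%, all of Kif23) in one that includes LSK, against 15.3%. Its class of bound factors named PU.1 at 9 of the 35 (25.7%, against 28.3% of all) and CEBPA at 6 (17.1%, against 21.5%). The stage class and the H3K4me1 values may rest on the same libraries, so the class is no separate evidence.

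The stages carried the markers of their labels in the expression values. Summed over 7 mature neutrophil genes, the expression value was 290 in LSK, 1652 in preGM, 3899 in GMP and 50921 in granulocytes. Most of the sum in GMP was S100a8, with 2902 against 462 in preGM. Lcn2, Camp and Mmp9 were slightly higher in GMP than in preGM, and Ltf, Ngp and Cxcr2 were lower. Over 7 stem and multipotent progenitor genes the sums were 10363, 7923, 3347 and 508 in the same order of stages. Cebpa itself had 48.3 in KO preGM, against 208 in wild type preGM. Expression comes as 4 columns for the wild type stages and a separate pair for KO and wild type preGM, matched to the groups by name alone, and the assay, scale and libraries behind them are not given in the sources used here. The pair of columns named for wild type preGM differ from each other (Pearson r = 0.78 over genes on the log2 scale, genes not being independent replicates), so the 4 stages were compared only among themselves and KO only with its own wild type.

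Expression of these genes differed by stage, with all but Kif23 far lower in granulocytes than in GMP. In bulk samples fewer dividing cells and less RNA per cell cannot be told apart. For the replication genes, Mcm5 had an expression value of 2669 in LSK, 4585 in preGM, 4483 in GMP and 539 in granulocytes. Rrm2 had 1704, 1669, 3622 and 499 over the same stages. Top2a had 3011, 1708, 3123 and 715. Mcm5 was high in both progenitor stages, Rrm2 was highest in GMP, and Top2a was about as high in LSK as in GMP. Among the division genes, Cdk1 had 870 in LSK, 422 in preGM, 682 in GMP and 239 in granulocytes. Aurkb had 443, 273, 496 and 70.1 in that order. Kif23 had 1091, 278, 460 and 385. Cdk1 and Aurkb thus had a dip in preGM and a low in granulocytes, while Kif23 was highest in LSK and nearly level between GMP and granulocytes.

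**Figure D1:**
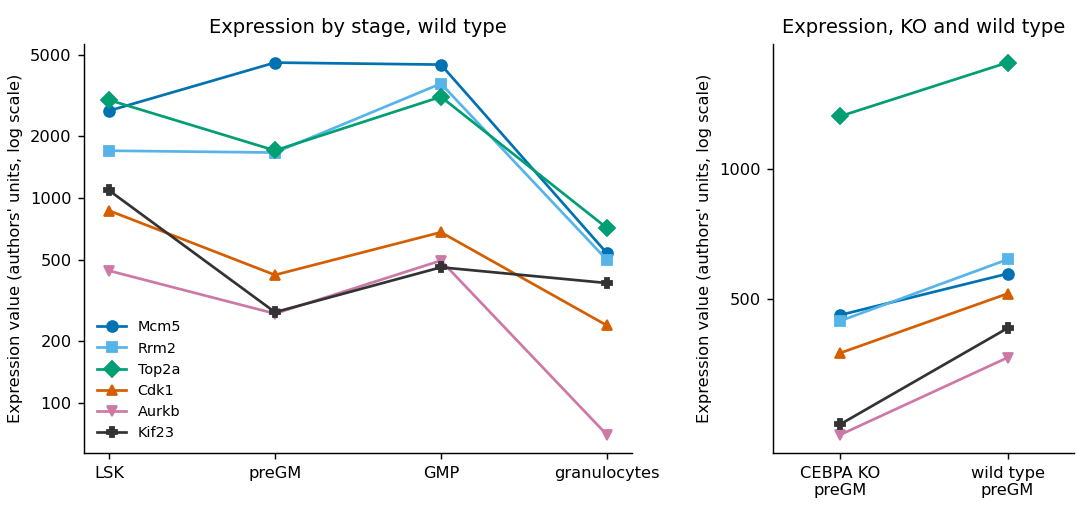
Expression value of each gene on a log axis (authors' units), by wild type stage on the left and in CEBPA KO and wild type preGM on the right, 1 value per group; the panels come from separately scaled sets. All genes but Kif23 are lowest in granulocytes, and all 6 are lower in KO than in wild type preGM.

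Ratios are given as log2 with a pseudocount added to both values and the median log2 ratio of all genes, or of all enhancers, subtracted, and a difference of at least 2-fold is one of at least 1 in size on that scale. Between granulocytes and GMP, 5 of the 6 genes were at least 2-fold lower and none higher, where 20.8% of all genes were lower and 17.5% higher. The log2 ratios of expression were -2.88 for Mcm5, -2.68 for Rrm2, -1.95 for Top2a, -1.33 for Cdk1, -2.63 for Aurkb and -0.08 for Kif23. Between GMP and preGM, Rrm2 alone was at least 2-fold higher (1.08) and none was lower, where 3.95% of all genes were higher and 5.78% lower. The other ratios were 0.83 for Top2a, 0.82 for Aurkb, 0.69 for Kif23, 0.65 for Cdk1 and -0.07 for Mcm5. Between preGM and LSK, Kif23 (-2.02) and Cdk1 (-1.09) were at least 2-fold lower and none was higher, where 1.55% of all genes were lower and 2.74% higher. Top2a (-0.86) and Aurkb (-0.74) were on the lower side, Rrm2 (-0.08) was near the median, and Mcm5 (0.73) was on the higher side. These 3 comparisons share the preGM and GMP columns, so their values are not independent of each other.

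The order lower in preGM than LSK, higher in GMP than preGM and lower in granulocytes than GMP was held by 5 of the 6 genes, all but Mcm5, whatever the size of the steps, and by 16.8% of all genes. That order was chosen after the values were seen, and the first step of Rrm2 was small (1669 in preGM, against 1704 in LSK). Among other genes of mitosis and cytokinesis, a list of 48 with 37 in the table, 32 held the same order. Of the replication fork genes, a list of 34 with 22 in the table, 3 held it.

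The replication list differed from the mitosis list at the first step. Between preGM and LSK, 17 of the 22 replication genes were above the median of all genes (list median 0.29) and 1 was at least 2-fold higher, Gins1, a subunit of the replicative helicase's GINS complex, with 861 in preGM against 382 in LSK. Of the 37 mitosis genes, 36 were below the median (list median -0.99) and 16 were at least 2-fold lower. Of all genes, 2.74% were at least 2-fold higher and 1.55% lower in this comparison. The 3 lowest mitosis genes were Nusap1, a spindle protein with 367 in preGM against 1447 in LSK, Ube2c, a ubiquitin-conjugating enzyme of the anaphase-promoting complex, with 140 against 415, and the kinesin Kif18b with 158 against 461. Among the 6 genes, Mcm5 (0.73) was above the median of all genes and Rrm2 (-0.08) was near it. Top2a (-0.86), grouped here with the replication genes, was below it together with Cdk1, Aurkb and Kif23. Top2a was thus on the side of the mitosis list.

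Between GMP and preGM, 3 of the 37 mitosis genes and 2 of the 22 replication genes passed 2-fold upward, and none of either list passed it downward. Of all genes, 3.95% were higher and 5.78% lower, and these small counts were not tested against that share. The 3 mitosis genes were Kif11, a spindle motor, with 396 in GMP against 158 in preGM, Cdca8, a chromosomal passenger subunit that partners Aurkb, with 4466 against 1870, and Anln, an actin-binding protein of the cleavage furrow, with 637 against 271. The replication genes were Cdc45, a helicase cofactor, with 365 in GMP against 154 in preGM, and Gmnn, which restrains origin licensing, with 3190 against 1397. Between granulocytes and GMP, 21 of the 22 replication genes, 5 of 6 genes of deoxynucleotide synthesis and 32 of the 37 mitosis genes were at least 2-fold lower. Of all genes, 20.8% were lower and 17.5% higher. Cdc6, an origin licensing factor, had 63.7 in granulocytes against 1137 in GMP, and Mcm4, another helicase subunit, had 264 against 3772. Ect2, the exchange factor that works with the Kif23 complex in cytokinesis, had 36.1 in granulocytes against 896 in GMP. Of these lists, 1 gene was at least 2-fold higher, the phosphatase Cdc25b, with 313 in granulocytes against 47.9 in GMP.

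At the enhancers, H3K27ac was highest in GMP at the strongest enhancer of each gene but Kif23, strongest meaning the highest mean H3K27ac over the 5 groups. That mean includes the GMP value, so the choice favours enhancers that are high in GMP. The share of all genes whose strongest enhancer is highest in GMP is not given here. For the replication genes, the Mcm5 enhancer at chr8:77633221-77633437 had an H3K27ac signal of 2.32 in LSK, 3.16 in preGM, 4.87 in GMP and 2.88 in granulocytes. The Rrm2 enhancer at chr12:25393047-25393102 had 1.17, 1.39, 4.58 and 3.56 over the same stages. The single Top2a enhancer, chr11:98885396-98885832, had 1.87, 1.25, 3.60 and 2.72. Mcm5 stepped up at each stage to GMP, whereas Rrm2 was low in both earlier stages and Top2a was lowest in preGM. For the division genes, the Cdk1 enhancer at chr10:68814541-68814758 had 1.70 in LSK, 1.19 in preGM, 3.49 in GMP and 2.12 in granulocytes. The Aurkb enhancer at chr11:68859799-68859949 had 2.78, 3.07, 7.07 and 3.54. The strongest Kif23 enhancer, chr9:61813462-61813636, had 1.51, 1.70, 1.52 and 1.50, which is flat over the 4 stages.

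**Figure D2:**
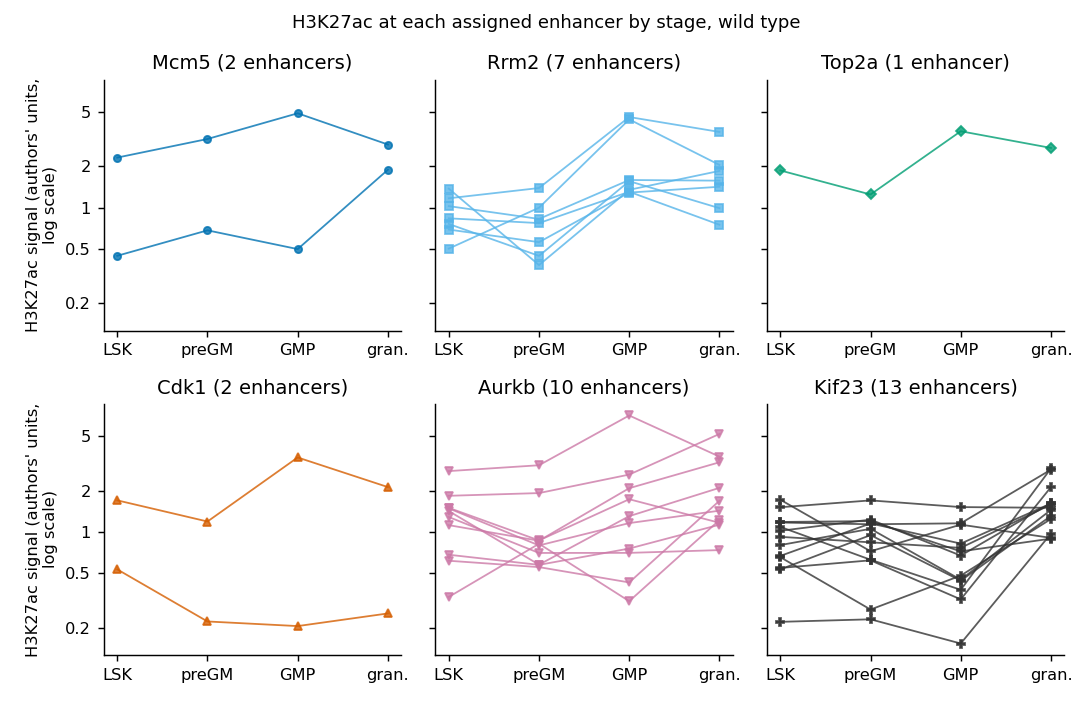
H3K27ac signal (authors' units, log axis) at each assigned enhancer by wild type stage, 1 panel per gene and 1 line per enhancer. The strongest lines of Mcm5, Rrm2, Top2a, Cdk1 and Aurkb, by a mean that includes GMP, are at their highest in GMP. Most Kif23 lines are lowest in GMP and highest in granulocytes.

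Between GMP and preGM, 2 of the 35 enhancers passed 2-fold upward in H3K27ac and none downward, where 2.77% of all enhancers were higher and 2.13% lower. Both belong to Rrm2: the one at chr12:25392340-25392415, with 4.40 in GMP against 0.997 in preGM (log2 ratio 1.29), and the neighbour at chr12:25393047-25393102 (1.04). All 7 Rrm2 enhancers were above the median of all enhancers, with a gene median of 0.63. Top2a (0.85), the strongest Cdk1 enhancer (0.85) and the strongest Aurkb enhancer (0.75) were on the same side without reaching 2-fold, and the strongest Mcm5 enhancer had 0.23. The enhancers assigned to Kif23 stood on the other side, with 12 of the 13 below the median of all. Their median was -0.58 and their lowest value -0.91. Over all 35 enhancers the median was -0.01, close to that of all enhancers, and 0.37 when signal was summed per gene. Before the median of all enhancers (0.29) was subtracted, 5 of the 35 were at least 2-fold higher, against 9.21% of all enhancers, and with a pseudocount 4 times as large none was.

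H3K4me1 moved less over this step by the same rule. None of the 35 enhancers was at least 2-fold higher or lower between GMP and preGM, where 0.205% of all enhancers were higher and 0.0159% lower. The widest difference was at the first Aurkb enhancer, chr11:68847702-68847777, with an H3K4me1 signal of 0.965 in LSK, 1.96 in preGM, 6.46 in GMP and 11.1 in granulocytes. Its log2 ratio between GMP and preGM was 0.88, and its level in GMP lay in the 92.3rd percentile of all enhancers. Before the median of all enhancers (0.21) was subtracted, its ratio was 1.09. It was then the 1 enhancer of the 35 at least 2-fold higher, against 0.855% of all enhancers, and none was lower, against 0.00227%. The Mcm5, Top2a and Cdk1 enhancers with the strongest H3K27ac had little H3K4me1 in GMP, with 2.07, 1.84 and 2.32, while the median of all enhancers was 3.79. Whether these regions lie at the promoters of their genes was not tested.

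Between preGM and LSK, the histone marks at these enhancers differed little. None of the 35 was at least 2-fold higher or lower in H3K27ac, where 0.561% of all enhancers were higher and 0.457% lower, nor in H3K4me1, where 0.00455% were higher and 0.00227% lower. For H3K27ac, 22 of the 35 were below the median of all, with a set median of -0.10. The lowest was the Rrm2 enhancer at chr12:25395921-25396094, with 0.380 in preGM against 1.37 in LSK (-0.97), and the highest was the Aurkb enhancer at chr11:68854932-68855097, with 0.819 in preGM against 0.335 in LSK (0.53). Kif23, whose expression was lower in preGM than in LSK (-2.02), had 13 enhancers with a median of -0.01 in H3K27ac.

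Between granulocytes and GMP, H3K27ac moved both ways. It was lower at the strongest enhancers of Mcm5 (-0.78), Rrm2 (-0.45), Top2a (-0.47), Cdk1 (-0.71) and Aurkb (-1.01). The strongest Kif23 enhancer was slightly lower too (-0.15), while most Kif23 enhancers were higher. The strongest enhancers were chosen by a mean that includes the GMP value, which favours a lower value in granulocytes. Of the 35 enhancers, 2 passed 2-fold upward and 2 downward, where 10.8% of all enhancers were higher and 8.24% lower. The higher ones were the neighbouring Kif23 enhancers at chr9:61802473-61802671, with 2.91 in granulocytes against 0.378 in GMP (1.60), and at chr9:61803097-61803280, with 2.12 against 0.322 (1.33). The lower ones were the Rrm2 enhancer at chr12:25392340-25392415, with 2.05 in granulocytes against 4.40 in GMP (-1.03), and the strongest Aurkb enhancer, with 3.54 against 7.07 (-1.01). Of the 13 Kif23 enhancers 11 were above the median of all (gene median 0.62), as were 7 of the 10 of Aurkb (0.26). So were 1 of the 2 of Mcm5 (0.10), 1 of the 7 of Rrm2 (-0.45) and neither of Cdk1. Before the median of all enhancers (0.14) was subtracted, 4 passed 2-fold upward and none downward, against 14.1% and 6.05% of all enhancers, and with a pseudocount 4 times as large none passed it either way. Since GMP is in both this comparison and the one with preGM, a high GMP value moves them in opposite directions.

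H3K4me1 did not follow H3K27ac at every one of these enhancers. At the strongest Mcm5 enhancer H3K4me1 had 2.48 in LSK, 2.21 in preGM, 2.07 in GMP and 10.5 in granulocytes. The Top2a enhancer had 1.89, 1.60, 1.84 and 6.28, and the strongest Cdk1 enhancer had 3.10, 2.59, 2.32 and 7.24. Each was thus highest in granulocytes in H3K4me1 and highest in GMP in H3K27ac. Their log2 ratios of H3K4me1 between granulocytes and GMP were 1.29 for Mcm5, 0.78 for Top2a and 0.77 for Cdk1. In all, 8 of the 35 enhancers (22.9%) were below the median of all in H3K27ac and above it in H3K4me1, against 16.7% of all enhancers, and 17 (48.6%) were above in both marks, against 33.3%.

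In H3K4me1, 2 of the 35 enhancers passed 2-fold upward between granulocytes and GMP and 2 downward, where 3.43% of all enhancers were higher and 10.2% lower. The higher ones were the strongest Mcm5 enhancer and the Kif23 enhancer at chr9:61802473-61802671, with 10.1 in granulocytes against 2.36 in GMP (1.15). The lower ones were the second Cdk1 enhancer, chr10:68862527-68862613, with 0.553 in granulocytes against 2.86 in GMP (-1.25), and the Rrm2 enhancer at chr12:25408520-25408734, with 1.52 against 3.80 (-1.04). Over the 35 enhancers 25 were above the median of all, with a set median of 0.29. The median level of the 35 in granulocytes, 6.68, lay in the 66.9th percentile of all enhancers. Before the median of all enhancers (0.32) was subtracted, 9 passed 2-fold upward and none downward, against 9.69% and 2.81% of all enhancers, and with a pseudocount 4 times as large none passed it either way.

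**Figure D3:**
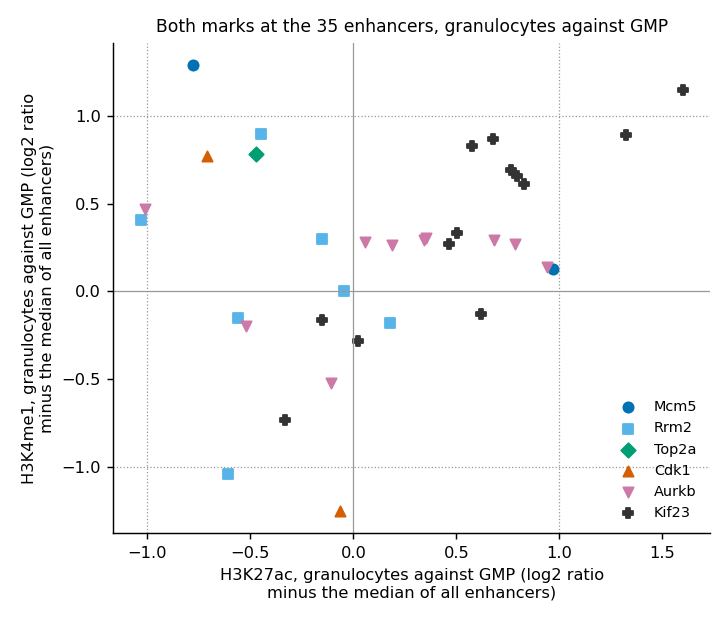
Log2 ratio of granulocytes to GMP, minus the median of all enhancers, for H3K27ac (x axis) and H3K4me1 (y axis) at each of the 35 enhancers, 1 point per enhancer; dotted lines mark 2-fold. The strongest Mcm5, Top2a and Cdk1 enhancers lie at upper left, lower in H3K27ac and higher in H3K4me1, and most Kif23 enhancers lie at upper right.

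The 2 genes with the most enhancers had them in different arrangements. Aurkb had its GMP maximum, 7.07, at the 8th of its 10 enhancers, and another enhancer, chr11:68853838-68853962, had its highest H3K27ac in granulocytes, with 1.83 in LSK, 1.92 in preGM, 2.62 in GMP and 5.18 in granulocytes. In Kif23 the granulocyte signal was high toward both ends of the array. The end with chr9:61802473-61802671 had 1.09 in LSK, 0.626 in preGM, 0.378 in GMP and 2.91 in granulocytes. Near the other end, chr9:61831153-61831309 had 1.17, 1.14, 1.16 and 2.85. At the 3 Kif23 enhancers chr9:61812504-61812812, chr9:61813462-61813636 and chr9:61814692-61814939 in the middle, granulocytes were no higher than LSK, with 0.904, 1.50 and 0.893 in granulocytes against 1.72, 1.51 and 1.18 in LSK.

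**Figure D4:**
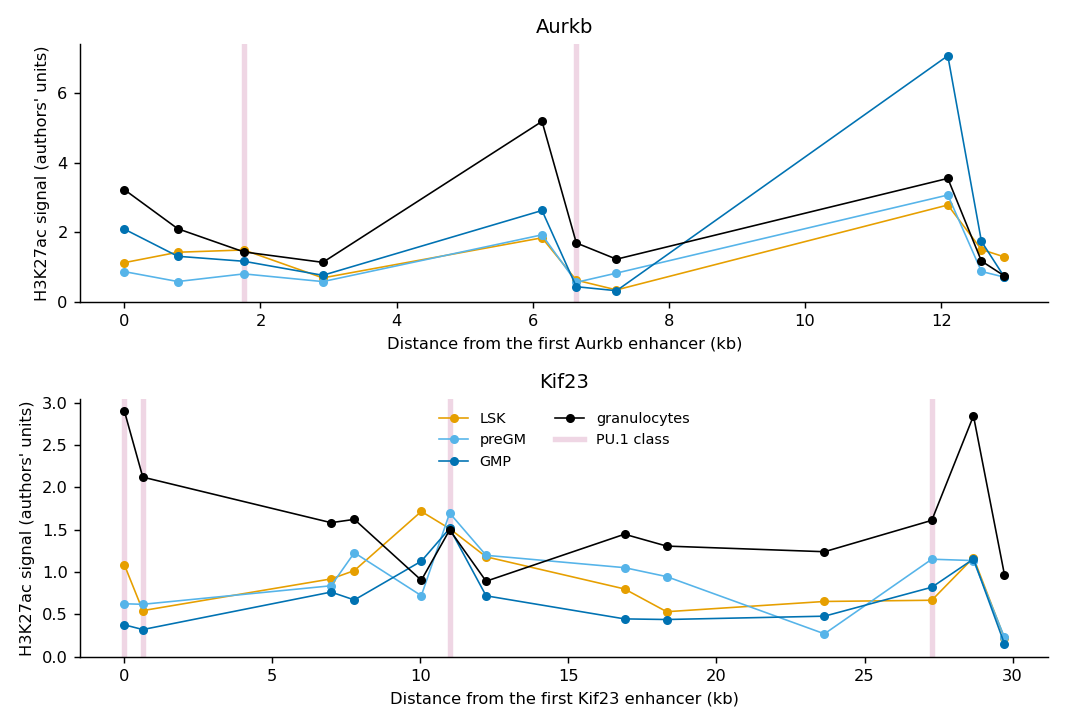
H3K27ac signal (authors' units) at each Aurkb and Kif23 enhancer against the distance of its start from the first enhancer of the gene in kb, 1 colour per wild type stage; lines only join neighbours, and shaded bars mark enhancers that the table classes as bound by PU.1. The Aurkb peak in GMP stands at 1 enhancer, and the Kif23 granulocyte signal is highest near both ends.

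PU.1 stood out at 1 enhancer of Mcm5 and at several of Kif23. The second Mcm5 enhancer, chr8:77643902-77643984, classed as bound by PU.1 and CEBPA, had a PU.1 signal of 17.3 in LSK, 41.0 in preGM and 33.7 in GMP, in the 99.6th percentile of all enhancers in preGM. Its H3K27ac was low up to GMP, with 0.445 in LSK, 0.682 in preGM, 0.497 in GMP and 1.89 in granulocytes. It is thus the enhancer of the set with the most PU.1, and it is not the one with the most H3K27ac. Next came the Kif23 enhancer at chr9:61829745-61829904, with a PU.1 signal of 2.25 in LSK, 14.5 in preGM and 12.5 in GMP. The Aurkb enhancer at chr11:68849459-68849565 had 5.17, 11.8 and 10.6. The other enhancers classed with PU.1 had between 2.33 and 5.58 in preGM.

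Between preGM and LSK, 3 of the 35 enhancers passed 2-fold upward in PU.1 and none downward, where 2.20% of all enhancers were higher and 0.600% lower. All 3 belong to Kif23 and to the PU.1 class: chr9:61829745-61829904 (2.11), chr9:61803097-61803280 with 4.48 in preGM against 0.988 in LSK (1.38), and chr9:61802473-61802671 with 5.58 against 1.88 (1.02). Among the 9 enhancers of the PU.1 class the median was 0.80 and 7 were above the median of all. Over all 12441 enhancers of the class the median was 0.31. The class may rest on these same PU.1 libraries, which would favour high preGM values in it. The median of all enhancers was 0.30 before it was subtracted, and 6 of the 35 were at least 2-fold higher without the subtraction, against 6.56% of all enhancers. With a pseudocount 4 times as large, 1 of the 3 was left. Between GMP and preGM, 1 of the 35 was at least 2-fold higher and none lower, where 1.00% of all enhancers were higher and 0.536% lower. It was the last Rrm2 enhancer, chr12:25420012-25420225, with a PU.1 signal of 1.10 in LSK, 2.55 in preGM and 6.97 in GMP (1.34), where H3K4me1 had 1.06, 1.81 and 4.79 in the same stages. CEBPA in wild type preGM was spread over nearly the whole range, from the 1.31st to the 94.3rd percentile of all enhancers with a median of 49.4. It was highest at the Aurkb enhancer chr11:68854932-68855097, with a signal of 1.41, and at the second Mcm5 enhancer, with 1.14 in the 91.5th percentile.

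**Figure D5:**
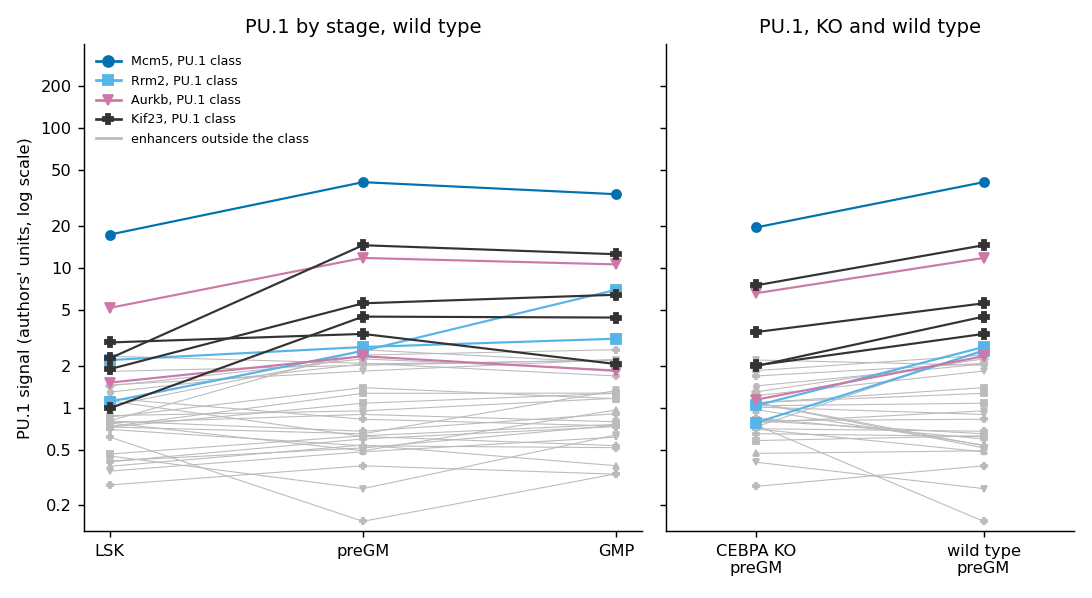
PU.1 signal (authors' units, log axis) at each of the 35 enhancers by wild type stage on the left and in CEBPA KO and wild type preGM on the right; coloured lines are the 9 enhancers classed as bound by PU.1, grey lines the other 26. All 9 coloured lines are lower in KO than in wild type preGM, but the class may rest on these same wild type libraries.

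In CEBPA KO preGM, PU.1 was lower than in wild type preGM at all 9 enhancers classed as bound by PU.1. The second Mcm5 enhancer had a PU.1 signal of 19.5 in KO preGM, against 41.0 in wild type preGM (log2 ratio -0.79). The Kif23 enhancer at chr9:61829745-61829904 had 7.50 in KO preGM, against 14.5 in wild type preGM (-0.63), and the Aurkb enhancer at chr11:68849459-68849565 had 6.59 against 11.8 (-0.52). The last Rrm2 enhancer had 0.782 in KO preGM, against 2.55 in wild type preGM (-0.92). All 9 enhancers of the PU.1 class were below the median of all, with a median of -0.63, as were 10918 of the 12441 enhancers of that class in the whole table, with a median of -0.42. The difference was thus shared by most enhancers of the class. The class may rest on the wild type PU.1 libraries compared here, which would favour lower KO values in it. The split by class is therefore no separate evidence. None of the 9 reached 2-fold after the median of all (-0.27) was subtracted, and 3 did before, as did 2317 of the 12441.

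Of the other 26 enhancers 21 were above the median of all, with a median of 0.24, as were 20478 of the 31561 enhancers outside the class in the whole table, with a median of 0.15. Before the subtraction the 26 had a median of -0.02 and 14 of them were below 0, so their side depends on the scaling. Over the 35, 1 enhancer was at least 2-fold higher in PU.1 in KO preGM and none lower, where 0.725% of all enhancers were higher and 1.99% lower. It was the Kif23 enhancer at chr9:61820791-61821174, with a PU.1 signal of 0.747 in KO preGM, against 0.153 in wild type preGM (1.10), in the lowest percentile of all enhancers in wild type preGM. With a pseudocount 4 times as large it fell short of 2-fold. Without the subtraction none was higher and 4 were at least 2-fold lower, against 0.0955% and 6.15% of all enhancers. The Rrm2 enhancer at chr12:25392340-25392415, outside the class, was among these 4, with 0.730 in KO preGM against 2.59 in wild type preGM (-0.997 after the subtraction).

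Neither histone mark differed 2-fold at these enhancers between KO and wild type preGM. None of the 35 did in H3K27ac, where 0.323% of all enhancers were higher and 0.657% lower in KO preGM, or in H3K4me1, where 0% were higher and 0.00909% lower. The set medians were 0.03 for H3K27ac and 0.00 for H3K4me1. The strongest Mcm5 enhancer had an H3K27ac signal of 2.43 in KO preGM, against 3.16 in wild type preGM, and the strongest Aurkb enhancer had 3.13 against 3.07. Top2a had 1.62 in KO preGM against 1.25 in wild type preGM, and the strongest Cdk1 enhancer had 1.96 against 1.19. The widest differences were at the last Rrm2 enhancer, with 1.60 in KO preGM against 0.559 in wild type preGM (0.82), and at the Kif23 enhancer chr9:61810242-61810436, with 0.468 against 1.23 (-0.77).

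Expression of all 6 genes was lower in KO than in wild type preGM, by less than 2-fold. Mcm5 had 458 in KO preGM, against 572 in wild type preGM (log2 ratio -0.32). Rrm2 had 444 against 617 (-0.47), and Top2a had 1330 against 1774 (-0.42). Cdk1 had 374 in KO preGM, against 514 in wild type preGM (-0.46). Aurkb had 241 against 364 (-0.60), and Kif23 had 255 against 427 (-0.74). None of the 6 was at least 2-fold higher or lower, where 0.466% of all genes were higher and 0.644% lower. Of all genes, 8.37% were as low as Mcm5 or lower in this ratio, 3.61% as low as Rrm2, 4.92% as low as Top2a, 4.03% as low as Cdk1, 2.30% as low as Aurkb and 1.34% as low as Kif23.

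The other division genes stood on the same side. All 22 replication genes were below the median of all genes in KO preGM (list median -0.34), as were all 6 of deoxynucleotide synthesis (-0.39) and 33 of the 37 of mitosis (-0.31), and none was 2-fold different. Other cells' markers moved with this comparison. The sum over 4 primary granule genes was 4714 in KO preGM, against 9107 in wild type preGM, that over 7 mature neutrophil genes was 317 against 1067, and that over 5 monocyte genes was 291 against 1351. Within the neutrophil sum the widest differences were in Cxcr2 (87.7 against 570) and S100a8 (24.8 against 212), and only Mmp9 was higher in KO preGM (43.0 against 41.8). The 7 stem and multipotent progenitor genes summed to 2601 in KO preGM, against 3508 in wild type preGM, the 4 megakaryocyte genes to 709 against 606, and the 2 of 5 erythroid genes in the table to 311 against 260. The 2 of 5 T and NK cell genes in the table summed to 1574 in KO preGM, against 1180 in wild type preGM. Most of that sum was Nkg7, with 1474 against 1111. Nkg7 also had 1785 in wild type GMP of the stage columns, so the sum is no measure of T or NK cells alone. The 2 of 5 B cell genes summed to 92.2 in KO preGM against 86.5. Prg2, the only listed eosinophil, basophil or mast cell marker in the table, had 34.8 against 46.0. No gene at all was at 0 in any column, so a value above 0 does not show that a marker was expressed. The lowest value of any gene was 6.45 in KO preGM and 6.58 in wild type preGM of this pair. The part of a different mix of cells in the lower expression was not tested.

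The genes nearest to each of the 6 in expression were found over the 6 expression columns together, by the root mean square difference in log2 value after each gene's own mean was removed, among 5048 genes with at least the median mean expression. Since the columns come from 2 separately scaled sets, the measure mixes stages with the scale between sets. Nearest to Cdk1 were Cenpf (0.15), a centromere protein, Top2a (0.19) and Racgap1 (0.23), which forms the centralspindlin complex with Kif23. Nearest to Aurkb were the kinase Melk (0.13), Mad2l1 (0.20) of the spindle checkpoint, and Wdr67 (0.20). Nearest to Top2a were Cdk1 (0.19), Pdrg1 (0.21) and Ipo9 (0.22), and nearest to Rrm2 were Atp2a2 (0.16), Mthfd1 (0.17) and Gmnn (0.18). Mcm5 had Hint1 (0.14), Zfp706 (0.20) and C1qbp (0.21). On the 4 stage columns alone these 3 ranked 41, 102 and 79 among the genes compared, those of Top2a 17, 19 and 24, and those of Rrm2 11, 42 and 12. Those of Cdk1 ranked 2, 14 and 9, and those of Aurkb 2, 16 and 13. Kif23 was farther from its nearest genes, Gm2a (0.33), Dusp6 (0.33) and Alcam (0.34), none of which is in the division lists. On the stage columns alone these ranked 9, 18 and 10.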

How the data were processed

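The labels list 77 libraries from sorted mouse bone marrow, 53 of ChIP-seq and 24 of RNA-seq. The authors deposited a table of enhancers with 1 signal value per enhancer for each of 15 groups of assay, stage and genotype, each matching 2 listed libraries by its column name. The sources used here do not say how libraries were pooled or scaled into it. The submitters' processing notes name Bowtie2, MACS2, bedtools and build mm9. The 6 deposited expression columns are of another, unnamed unit, matched by name to groups of 3 listed RNA libraries, and nothing in the sources ties them to those libraries. The other 11 value columns were not used. Depth per library is unknown, so no interval was computed.

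Each comparison was a log2 ratio with a pseudocount of 0.7 for H3K27ac, 2 for H3K4me1, 0.6 for PU.1 and 1 for expression, minus the median ratio of all rows, and 2-fold differences were counted over the whole table with no test. A replicate test had been planned and could not be run on 1 value per group. The alternatives varied the pseudocount, the centring, a filter on low values and the use of summed signal per gene. All 6 genes and their enhancers are named whatever their values, and from each list at most 3 genes higher and 3 lower. The members and the lists were chosen with earlier results of these data known. Python 3.11.15, pandas 2.3.3 and numpy 2.4.6 were used, and the steps were tested on simulated data. The planted changes there were much larger than 2-fold, so how well differences near 2-fold are found was not tested. Motifs were searched on both strands.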

Additional observations from a re-analysis of the deposited data

How the results depend on the processing

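No difference of at least 2-fold took another sign under any alternative, and the expression counts stayed within 1.5 times. Of 487 recomputed ratios and medians 30 took another sign, none of them over 0.24 in size as reported. Among these were H3K27ac at the strongest Mcm5 enhancer for GMP against preGM (0.23, and -0.07 with the filter on low enhancers), expression of Kif23 for granulocytes against GMP (-0.08, and 0.18 with the filter) and the H3K27ac median of the set for granulocytes against GMP (0.18, and -0.25 summed per gene). Counts of the 35 enhancers depended on the settings. The share of all enhancers under each setting is not given in this section, so these counts show no excess or lack at the 35. A pseudocount 4 times smaller gave, in H3K27ac, 3 lower for preGM against LSK (0 as reported), 4 higher and 6 lower for GMP against preGM (2 and 0), 8 higher for granulocytes against GMP (2), and 2 higher and 2 lower for KO against wild type preGM (0 and 0). In H3K4me1 it gave 1 higher for GMP against preGM (0), 8 higher for granulocytes against GMP (2) and 2 lower for KO against wild type (0). In PU.1 it gave 2 lower for preGM against LSK (0), 2 higher for GMP against preGM (1), and 4 higher and 2 lower for KO against wild type (1 and 0). A pseudocount 4 times larger left 1 enhancer, in PU.1 for preGM against LSK, and 0 in every other ChIP comparison. Without centring, the counts higher were 5 for GMP against preGM and 4 for granulocytes against GMP in H3K27ac, 1 and 9 in H3K4me1, 6 for preGM against LSK in PU.1 and 0 for KO against wild type in PU.1, where 4 were lower; none was lower in granulocytes. With only enhancers at or above the median of all in the higher group, H3K27ac had 1 of 18 lower for preGM against LSK and 0 of 13 higher for GMP against preGM. H3K4me1 then had 1 higher and 0 lower of 24 for granulocytes against GMP, and PU.1 had 0 of 16 higher for KO against wild type. Signal summed per gene left 1 of 6 genes, higher in H3K27ac in granulocytes than in GMP, and 0 in the other ChIP comparisons. A pseudocount of 0.6 for H3K27ac, chosen after seeing the data, gave 1 lower for preGM against LSK and 4 higher for granulocytes against GMP. The median CEBPA percentile was 49.4, and 52.9 when ranked among enhancers of at least the median width. The filter also changes the subtracted median: both Rrm2 enhancers called in H3K27ac for GMP against preGM were kept and fell under 2-fold as it changed by 0.30, while both H3K4me1 enhancers lower in granulocytes and the PU.1 enhancer higher in KO preGM were left out. The cause of the other moved counts was not tested. No paired analysis was possible because the table holds 1 value per group, and for the same reason no library could be left out. The values have no replicate error, so small differences cannot be told from noise, and most weak enhancers lie near the pseudocount.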

Other observations

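Genes that hold or release the G1 stage were found on both sides in expression between granulocytes and GMP, where 17.5% of all genes were at least 2-fold higher and 20.8% lower. Of 23 G1 and E2F genes in the table, 13 were at least 2-fold lower and 3 higher, and 3 of 23 is below the share of all genes. Ccne2, a cyclin of S phase entry, had 19.2 in granulocytes against 617 in GMP, and Skp2, which marks CDK inhibitors for destruction, had 49.7 against 688. The higher genes were Ccnd3, a D-type cyclin, with 3210 in granulocytes against 180 in GMP, E2f2 with 721 against 65.4, and the pocket protein Rbl2 with 381 against 143. Of 9 CDK inhibitors and anti-proliferative genes, 3 were at least 2-fold higher and 1 lower, or 2 lower without the subtraction of the median. Gadd45a, a stress-response gene, had 693 in granulocytes against 32.2 in GMP, Btg2 had 1143 against 108, and the CDK inhibitor Cdkn1c had 39.8 against 9.22. The GMP value of Cdkn1c was near the lowest of any gene in GMP, 6.56, where the median was 113, so its ratio is uncertain. Cdkn1a was the lower one, with 35.6 in granulocytes against 204 in GMP.

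In CEBPA KO preGM, 8 of the 9 anti-proliferative genes were above the median of all genes relative to wild type preGM (list median 0.30), and 17 of the 23 G1 and E2F genes were below it (-0.25), with none 2-fold different in either list. Between preGM and LSK, Btg2 had 133 in preGM against 506 in LSK.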
